A study of Mus musculus with 6 samples.

Results

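Heat shock proteins and DnaJ proteins are molecular chaperones. The genes examined were the rows of the count table annotated as protein coding whose name began with Dnaj, or with Hsp followed by a, b, d, e, h or a digit, which gave 74 of the 54532 genes listed. The samples were the whole hearts of 6 male C57BL/6 mice aged 3 months, 3 of each genotype, and RNA was sequenced from each heart separately. The α1r/rα2s/s hearts (mice 368, 369 and 370) carried the natural mouse Na/K-ATPase α1, which is resistant to cardiotonic steroids (CTS), and are called resistant. The α1s/sα2s/s hearts (mice 379, 380 and 381) carried an α1 made sensitive to CTS by amino acid substitutions, and are called sensitive. The substituted α1 was present in the whole animal and not in the heart alone, and all 6 mice, controls included, also carried the α2 isoform in its CTS-sensitive form (α2s/s), as mouse α2 naturally is. No steroid was given in these groups, and read counts per gene do not show the substitutions, so genotypes were taken from the labels.

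Chaperones bind proteins that are unfolded or not yet folded, and use cycles of ATP binding and hydrolysis to help them fold, assemble or reach degradation. Hsp70 proteins do this work together with DnaJ proteins, which bring substrates and speed up ATP hydrolysis, while Hsp90 proteins act later on kinases, receptors and other clients, and small heat shock proteins hold unfolded proteins without using ATP. Each compartment has its own machinery: Hspa8 and the Hsp90 pair in the cytosol, Hspa5 (BiP) and Hsp90b1 (GRP94) in the endoplasmic reticulum (ER), and Hspa9 (mortalin), Hspd1 (Hsp60) and Hspe1 (Hsp10) in mitochondria. Cardiac muscle is rich in small heat shock proteins that associate with the contractile apparatus.

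Each heart had 19309312 to 20470065 counts, and the 74 chaperone genes together took 0.983 to 1.08% of them. Levels are given as CPM (counts scaled to a common library size), with edgeR's TMM factors, which ran from 0.945 to 1.06. A gene was tested when it passed edgeR's filter on low counts, and it was called when its adjusted p in edgeR's quasi-likelihood test was under 0.05. Fold changes are those of sensitive over resistant hearts on the log2 scale, with their standard error (SE). As edgeR's common estimate over all tested genes, the coefficient of variation between hearts of 1 genotype, beyond counting noise, was 11.1%. Cardiomyocyte markers (Myh6, Tnnt2, Tnni3, Actc1 and Ryr2) summed to 36898 to 46595 CPM in resistant and 40997 to 44148 CPM in sensitive hearts, whereas the skeletal muscle markers Myh1, Myh4 and Actn3 summed to at most 0.525 CPM. Of the other cell types, all 4 macrophage and all 3 smooth muscle markers had a lower mean in sensitive hearts without any being called, with summed levels of 106 to 172 CPM in resistant against 91.9 to 114 CPM in sensitive hearts for macrophages and 103 to 144 against 98.7 to 112 CPM for smooth muscle. All 3 adipocyte markers had a higher mean in sensitive hearts without a call, at summed levels of 0.754 to 1.72 CPM against 1.84 to 3.77 CPM, which did not overlap. Of 4 endothelial markers 1 was higher and 3 lower, with sums of 725 to 858 CPM against 598 to 761 CPM, and of 4 fibroblast markers 2 were higher and 2 lower, with sums of 657 to 729 CPM against 660 to 736 CPM. In these lists the genotypes did not overlap for the endothelial gene Kdr (fold change -0.50, adjusted p = 0.0694) and the fibroblast gene Col1a1 (-0.41, adjusted p = 0.0743), which were both lower in sensitive hearts. Red blood cell genes summed to 401 to 3187 CPM and were highest in mouse 380. The part of these markers in the chaperone values was not tested. In RNA from a whole heart, fewer cells of a type and less RNA per cell cannot be told apart.

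Of the 74 genes, 66 were tested. The other 8 (Dnajb3, Dnajb7, Dnajb8, Dnajc6, Dnajc22, Dnajc5b, Dnajc5g and Hspb9) had at most 10 counts in any heart. Over all genes, edgeR tested 14866 and called 214, or 1.44%, with 116 higher (0.780%) and 98 lower (0.659%) in sensitive hearts. Among the chaperones 3 of 66 (4.55%) were called: Hspa8 and Dnajc21 rose and Hspa12a fell. The levels of the genotypes did not overlap for 17 of the 66 (25.8%; 10 higher and 7 lower in sensitive hearts), where 20% of all tested genes did not overlap (10% higher and 9.98% lower). With 42 fold changes above 0 and 24 below, 63.6% of the chaperones had a positive fold change against 48.4% of all tested genes, and the median fold change was 0.045 against -0.0078. An unadjusted p under 0.05 was reached by 16 of the 66, with 11 higher and 5 lower in sensitive hearts, against 14.5% of all tested genes (7.19% higher and 7.27% lower). DESeq2, an alternative test, called 7 chaperones and 3.56% of the genes to which it gave an adjusted p. The differences between the chaperones and all genes were not tested.

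By compartment, 22 of 28 tested cytosolic genes had a positive fold change with a median of 0.16, while in the ER it was 7 of 13 with a median of 0.0085, and in mitochondria 6 of 10 with a median of 0.040. The remaining 15 tested genes, which were not placed in any of these compartments, had 7 positive fold changes and a median of -0.027. They include partners of Hsp70 or of the ribosome, such as Hspbp1 and Dnajc2, and Dnajc21, which acts partly in the cytosol. No gene named Dnajc was counted in the cytosol, whereas the ER and mitochondrial groups include theirs, so the groups were not formed alike. The summed level of the 32 cytosolic genes was 5950, 6104 and 6991 CPM in resistant hearts and 7142, 7179 and 7377 CPM in sensitive hearts, with no overlap. The summed level of the 13 ER genes was 1419, 1319 and 1628 CPM in resistant and 1236, 1339 and 1305 CPM in sensitive hearts, so that the groups overlapped. For the 10 mitochondrial genes it was 1680, 1652 and 1840 CPM against 1819, 1806 and 1945 CPM, and resistant mouse 370 lay above sensitive mice 379 and 380. These sums are weighted to the most abundant genes. With equal weight for each of the 28 tested cytosolic genes, the genotypes overlapped. The mean of log2 CPM, minus the mean of all 6 hearts, was then -0.18, -0.11 and 0.016 in resistant hearts. In sensitive hearts it was 0.0064, 0.15 and 0.12, so that mouse 370 lay above mouse 379. The difference between compartments itself was not tested.

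**Figure D1:**
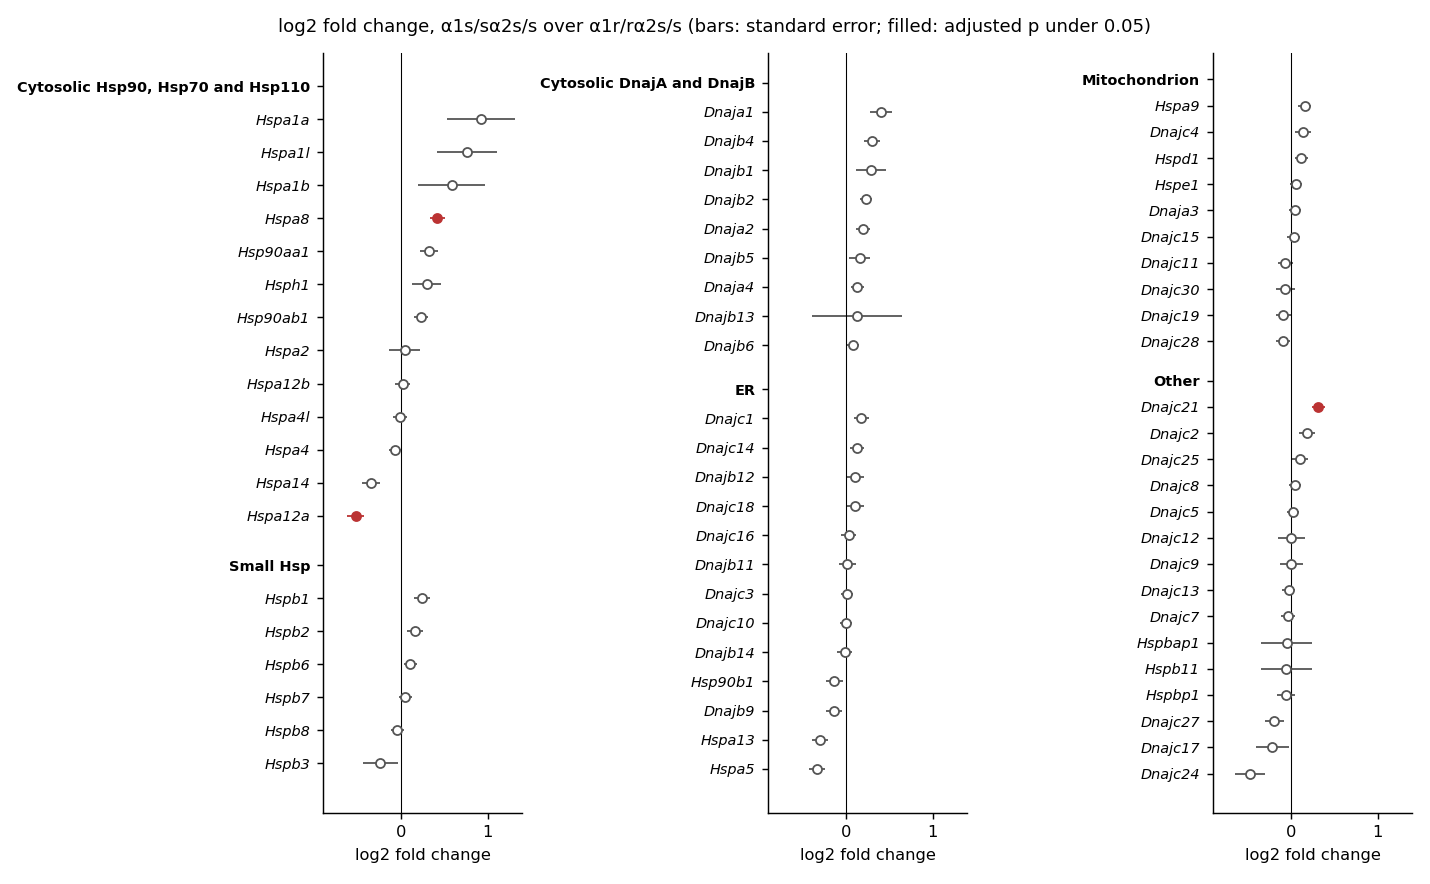
Log2 fold change of sensitive (α1s/sα2s/s) over resistant (α1r/rα2s/s) hearts for the 66 tested chaperone genes, grouped by place of action. Horizontal bars are standard errors, filled points are the 3 called genes (Hspa8, Hspa12a and Dnajc21), and all 9 cytosolic DnajA and DnajB genes lie to the right of 0.

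Promoter sequences are shown for genes that carry the best known control elements of the chaperone response, as a description of the letters only. RefSeq (GRCm38.p6) gave a promoter for 60 of the 74 genes, in 77 windows of 300 bases that run from 250 bases before the transcription start to 50 bases after it, and the windows were searched on both strands. The ER stress element, searched as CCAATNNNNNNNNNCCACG, is bound by factors of the unfolded protein response. It was in 39 of 32851 promoters (0.119%), and the genes here that held it were Hspa5, Hsp90b1 and Dnajc3, which are 3 of the 11 ER genes with a promoter. No cytosolic or mitochondrial window held it. The 250 bases before the start of each of these genes follow, with the element in capitals on whichever strand it was found.

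Hspa5, chr2:34771840-34772089, plus strand: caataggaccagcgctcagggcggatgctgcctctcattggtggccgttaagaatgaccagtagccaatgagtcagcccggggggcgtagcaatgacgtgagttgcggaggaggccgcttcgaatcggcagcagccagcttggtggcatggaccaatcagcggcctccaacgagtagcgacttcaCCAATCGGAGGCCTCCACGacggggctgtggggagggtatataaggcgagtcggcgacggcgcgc

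Hsp90b1, chr10:86705445-86705694, minus strand: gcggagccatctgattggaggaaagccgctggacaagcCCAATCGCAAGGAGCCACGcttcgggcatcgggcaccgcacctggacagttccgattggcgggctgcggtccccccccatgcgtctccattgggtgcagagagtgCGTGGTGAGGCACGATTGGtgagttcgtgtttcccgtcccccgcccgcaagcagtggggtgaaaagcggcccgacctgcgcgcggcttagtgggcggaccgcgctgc

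Dnajc3, chr14:118937682-118937931, plus strand: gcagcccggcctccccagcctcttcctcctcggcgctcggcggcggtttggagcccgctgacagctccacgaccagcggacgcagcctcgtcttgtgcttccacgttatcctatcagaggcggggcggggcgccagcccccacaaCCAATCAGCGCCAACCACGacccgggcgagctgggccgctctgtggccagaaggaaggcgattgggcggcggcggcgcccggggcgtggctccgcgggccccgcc

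The heat shock element, bound by heat shock factors, was searched as the units GAA, TTC and GAA in that order, with 2 bases of any kind between units. It was in 0.603% of all promoters and in those of Dnajb6, Hsph1, Hspd1 and Hspe1, or 4 of the 60 genes. The products of Hspd1 and Hspe1 form the folding chamber of the mitochondrial matrix and its lid. These genes start next to each other on opposite strands of chromosome 1. The same stretch with overlapping matches lies before Hspe1 and before a start of Hspd1. The window of another Hspd1 start (55088194 to 55088493), further upstream, held no match. The shared stretch is given on the strand of Hspe1, with the matches in capitals.

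Hspe1, chr1:55087898-55088147, plus strand: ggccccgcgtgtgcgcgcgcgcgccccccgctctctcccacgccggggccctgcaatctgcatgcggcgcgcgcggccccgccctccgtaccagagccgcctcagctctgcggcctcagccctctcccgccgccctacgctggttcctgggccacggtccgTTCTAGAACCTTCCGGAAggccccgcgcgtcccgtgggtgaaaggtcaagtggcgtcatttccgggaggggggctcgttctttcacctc

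A motif with fewer or imperfect units was not searched, so a gene without a match lacks only these letters in this window. Hspa8, Hsp90aa1, Hsp90ab1 and Hspa13 had no promoter in the table.

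Hspa8 encodes Hsc70, the constitutive Hsp70 of the cytosol that folds new proteins and strips clathrin from vesicles. Its level was 1102, 1195 and 1430 CPM in resistant mice 368, 369 and 370 and 1627, 1678 and 1673 CPM in sensitive mice 379, 380 and 381. Every sensitive heart was above every resistant heart, and the sensitive hearts lay closer together. The mean rose by 33.6%, from 1242 ± 169 to 1659 ± 28.01 CPM (SD, n = 3), a fold change of 0.42 (SE 0.088, adjusted p = 0.0313). The gene (ENSMUSG00000015656) lies on chromosome 9 of GRCm38 from 40800984 to 40810087 on the plus strand. Exact stretches of 100 bases shared with other genes covered 57.1% of its transcripts. The genes that share them are mostly processed pseudogenes with at most 36 counts in a heart, against at least 23087 for Hspa8. How reads that fit several genes were counted is not given, so these counts do not show the effect of the sharing. Leaving out mouse 370 gave an adjusted p of 0.0028, and leaving out any other heart (368, 369, 379, 380 or 381) gave 0.0732 to 0.164.

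Hspa12a, a distant relative of Hsp70 with a divergent ATPase domain, moved the other way. It had 47.7, 38.0 and 40.9 CPM in resistant hearts and 31.9, 28.7 and 27.6 CPM in sensitive hearts. The genotypes did not overlap, and resistant mouse 368 was the highest of the 6. Its mean fell by 30.3%, from 42.2 ± 4.96 to 29.4 ± 2.23 CPM (SD, n = 3), a fold change of -0.52 (SE 0.100, adjusted p = 0.0203). It lies on chromosome 19 from 58795751 to 58860984 on the minus strand (ENSMUSG00000025092), and 1.02% of its transcript sequence was shared with another gene. The adjusted p was 0.0968 without mouse 368, 0.0712 without mouse 380 and 0.0667 without mouse 381, and the call held without each of the other 3 hearts. Its paralog Hspa12b, which is known from endothelial cells, had a fold change of 0.021 (SE 0.088, adjusted p = 0.943).

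The stress-inducible Hsp70 genes were low in all hearts and varied widely. Hspa1a had 1.24, 2.34 and 3.17 CPM in resistant hearts and 1.94, 6.21 and 4.62 CPM in sensitive hearts. For Hspa1b the levels were 1.86, 2.72 and 6.43 CPM against 3.62, 8.26 and 4.62 CPM. Both overlapped between genotypes, with sensitive mouse 380 the highest and resistant mouse 368 the lowest heart for each. Hspa1a and Hspa1b are near-identical neighbours on chromosome 17, with 56.5% and 49.9% of their sequence shared, so reads could be split between them. Their counts added together gave a fold change of 0.72 (SE 0.35, adjusted p = 0.360), which was 1.26 without mouse 370, 0.42 without mouse 368 and 0.33 without mouse 380. Hspa1l, which is best known from the testis, overlaps an antisense gene over 70.8% of its sequence and had 2.01, 1.72 and 0.904 CPM against 2.09, 3.10 and 2.70 CPM (fold change 0.76, SE 0.34, adjusted p = 0.326). Hspa14, a chaperone linked to the ribosome, ran lower in sensitive hearts at 14.1, 15.4 and 15.8 CPM against 18.8, 19.4 and 19.2 CPM, without overlap or a call (fold change -0.35, SE 0.10, adjusted p = 0.129). The last of the cytosolic Hsp70 genes, Hspa2, had a fold change of 0.044 (adjusted p = 0.940).

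Both cytosolic Hsp90 genes had higher means in sensitive hearts, and neither was called. Hsp90ab1, the constitutive form, had 1025, 1086 and 1247 CPM in resistant and 1280, 1376 and 1294 CPM in sensitive hearts. These did not overlap, although the gap between mice 370 and 379 was smaller than the SD of the sensitive hearts (51.9 CPM). The fold change was 0.23 (SE 0.081, adjusted p = 0.184). Hsp90aa1, the inducible form, had 162, 177 and 228 CPM against 218, 251 and 241 CPM, and here mouse 370 was above mouse 379. Its fold change was 0.32 (SE 0.11, adjusted p = 0.159), and 40.7% of its sequence was shared with pseudogenes that had at most 32 counts. DESeq2 called both, with adjusted p of 0.0358 for Hsp90ab1 and 0.0438 for Hsp90aa1. Without mouse 370 edgeR also called both, with adjusted p of 0.0443 and 0.0139.

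The Hsp110 genes encode nucleotide exchange factors that reset Hsp70. Hsph1, the inducible member, had 52.9, 65.2 and 95.3 CPM in resistant hearts and 71.5, 94.0 and 96.1 CPM in sensitive hearts. Its range in resistant hearts covered most of that in sensitive hearts, with mice 370, 380 and 381 together at the top (fold change 0.29, SE 0.16, adjusted p = 0.425). Leaving out mouse 370 brought the fold change to 0.57 and the adjusted p to 0.0474, and leaving out mouse 368 gave 0.12 (adjusted p = 0.811). Hspa4 and Hspa4l, the other Hsp110 genes, had fold changes of -0.067 (adjusted p = 0.718) and -0.013 (0.960).

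**Figure D2:**
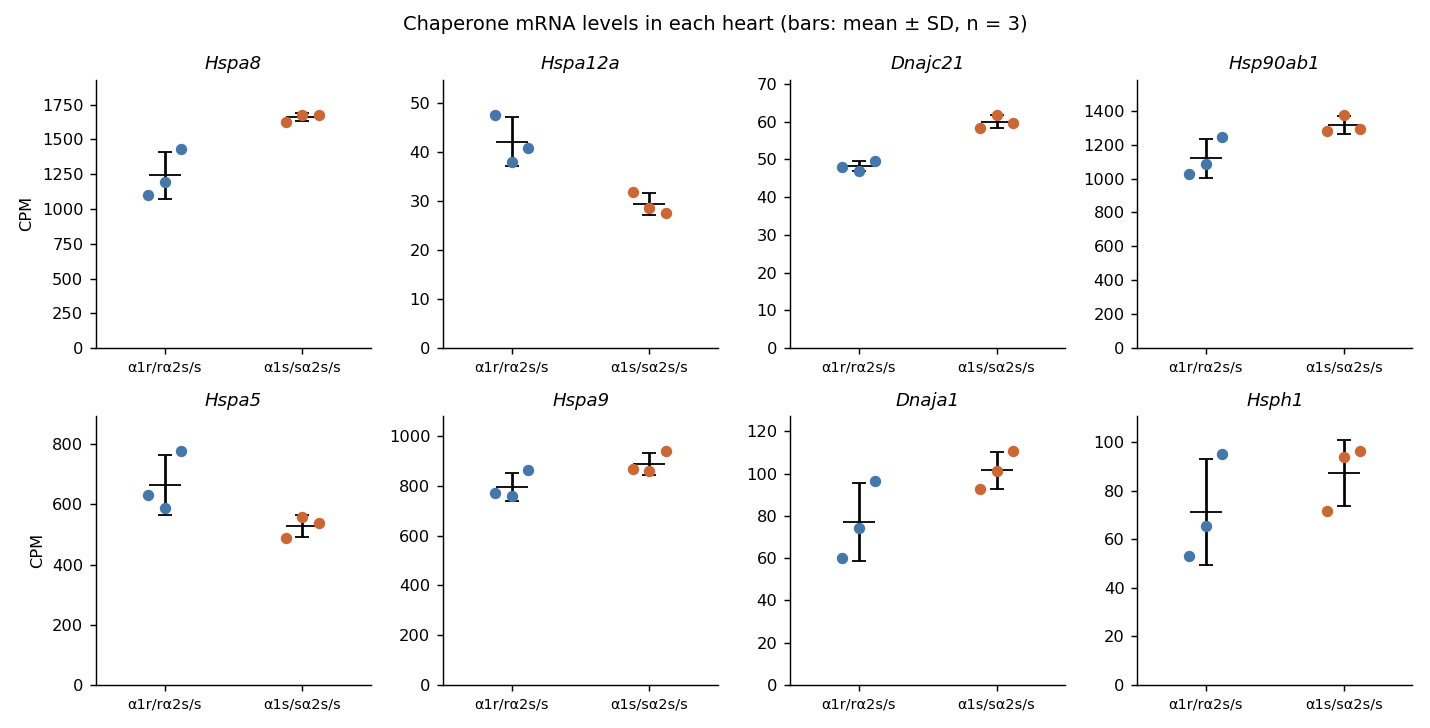
Level of 8 chaperone genes in each heart in CPM, on axes that start at 0, with the mean and SD of 3 hearts per genotype (black). Points are hearts, in the order 368, 369 and 370 (blue, α1r/rα2s/s) and 379, 380 and 381 (orange, α1s/sα2s/s), and for Hsph1, Dnaja1 and Hspa9 mouse 370 lies within the range of the sensitive hearts.

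All 9 tested cytosolic DnajA and DnajB genes, the main partners of Hsp70, had a positive fold change, with a median of 0.20 and a range of 0.085 to 0.40, although that of Dnajb13 turned to -0.24 without mouse 370 and -0.040 without mouse 380. None was called, and 4 had an unadjusted p under 0.05, a level reached by 14.5% of all tested genes in either direction and 7.19% upwards. Dnaja1, a farnesylated partner of Hsc70, had 60.3, 74.0 and 96.7 CPM in resistant and 92.7, 101 and 110 CPM in sensitive hearts. Only resistant mouse 370 overlapped the sensitive hearts, lying above mouse 379 (fold change 0.40, SE 0.13, adjusted p = 0.151). Without mouse 370 the fold change was 0.60 (adjusted p = 0.0140), and without mouse 368 it was 0.25 (adjusted p = 0.414). Dnajb4 had 108, 114 and 133 CPM against 135, 136 and 165 CPM, without overlap (fold change 0.30, SE 0.094, adjusted p = 0.142, and 0.0490 in DESeq2). Dnajb2, which carries ubiquitin interaction motifs and passes clients to the proteasome, was the tightest of these, at 68.4, 68.8 and 73.1 CPM against 82.9, 81.5 and 82.7 CPM. The genotypes were apart, but the gene was not called (fold change 0.23, SE 0.068, adjusted p = 0.120). Dnajb1 (Hsp40), a classical heat-inducible gene, had 16.0, 20.8 and 25.8 CPM against 19.6, 26.4 and 30.6 CPM and overlapped (fold change 0.29, SE 0.17, adjusted p = 0.455). The others were Dnaja2 (fold change 0.20), Dnajb5 (0.16), Dnaja4 (0.13), Dnajb13 (0.13, with 5 to 18 counts per heart) and Dnajb6 (0.085), with adjusted p of 0.265 to 0.942.

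Small heat shock proteins were among the most abundant chaperone mRNAs. Divided by the gene length listed in the count table, Hspb7, a cardiac small heat shock protein, had the highest level of all 74 genes, at 538 CPM per kb in resistant and 557 CPM per kb in sensitive hearts. Hsp90ab1 (373 and 439), Hspa8 (289 and 386), Hspb8 (238 and 231), Hspa9 (203 and 226), Hspb6 (190 and 204), Hspd1 (167 and 181), Hspb1 (148 and 176) and Hspa5 (157 and 125 CPM per kb) followed, in the order of the mean over genotypes. Over the 6 hearts the range of Hspb7 lay above that of Hsp90ab1. The ranges of Hsp90ab1 and Hspa8 overlapped, and so did that of each gene with the next from Hspb8 down to Hspa5. Cryab, which the name rule leaves out, had a higher mean than Hspb7, at 742 CPM per kb in resistant and 776 CPM per kb in sensitive hearts. The mRNA level of Hspb7 itself was 1458, 1452 and 1560 CPM against 1566, 1418 and 1642 CPM, which overlapped (fold change 0.049, SE 0.075, adjusted p = 0.816).

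**Figure D3:**
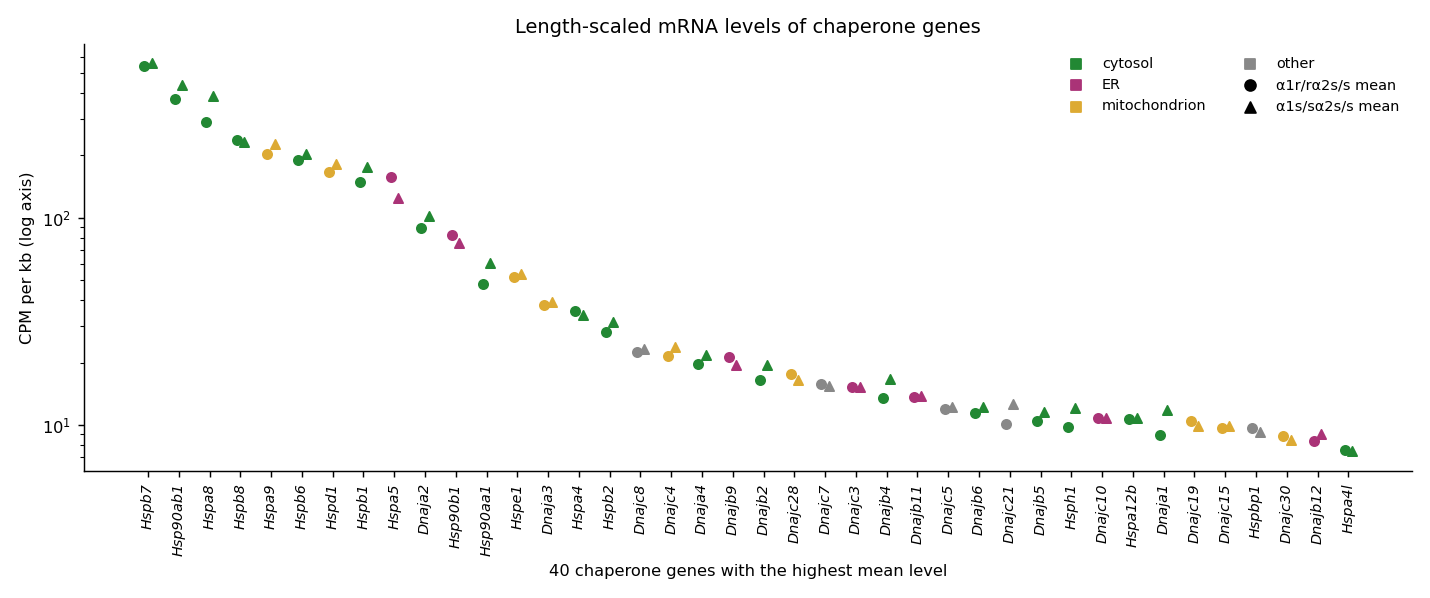
Mean level of the 40 chaperone genes with the highest level in CPM per kb, on a log axis, in resistant (circles) and sensitive (triangles) hearts, with the compartment shown by colour. Hspb7 is highest in both genotypes, and of the 9 highest genes Hspa5 and Hspb8 have the lower mean in sensitive hearts.

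Among the small heat shock proteins, Hspb1 (Hsp25), an actin-binding protein that is phosphorylated under stress, had 143, 135 and 181 CPM in resistant hearts and 179, 182 and 182 CPM in sensitive hearts. Mouse 370 was again at the level of the sensitive hearts (fold change 0.24, SE 0.092, adjusted p = 0.232, and 0.0257 without mouse 370). Hspb2 had 22.9, 23.2 and 24.1 CPM against 28.1, 24.9 and 25.4 CPM, without overlap and without a call (fold change 0.16, adjusted p = 0.453). It shares 18.4% of its sequence with its neighbour Cryab, which had 21312 to 23610 counts per heart against 473 to 566 for Hspb2. Hspb6, which binds the scaffold 14-3-3 when phosphorylated, had a fold change of 0.10 (adjusted p = 0.563), Hspb8, a partner of Bag3 in selective autophagy, -0.042 (0.839), and the muscle gene Hspb3 -0.24 (0.632).

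The ER chaperones with an Hsp name had lower means in sensitive hearts, without a call. Hspa5, the Hsp70 of the ER lumen that also holds the stress sensors inactive, had 630, 587 and 776 CPM in resistant hearts and 487, 558 and 539 CPM in sensitive hearts. Every sensitive heart was below every resistant heart, and mouse 370 was the highest. The mean was 664 ± 99.0 CPM against 528 ± 36.5 CPM (SD, n = 3), a fold change of -0.33 (SE 0.096, adjusted p = 0.111). DESeq2 called it, with an adjusted p of 0.0132, whereas without mouse 370 the fold change was -0.20 (adjusted p = 0.237). Hspa13, a second Hsp70 of this compartment, had 25.3, 24.5 and 25.8 CPM against 20.1, 21.4 and 20.1 CPM, again apart (fold change -0.30, SE 0.092, adjusted p = 0.139). Hsp90b1, the Hsp90 of the ER lumen, had 334, 281 and 385 CPM against 284, 319 and 310 CPM, which overlapped (fold change -0.13, SE 0.097, adjusted p = 0.570). The 3 genes with an Hsp name thus had negative fold changes, with a median of -0.30, and these signs held under the alternatives tried. Without mouse 370 the value of Hsp90b1 was close to 0, at -0.012 (adjusted p = 0.969).

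The 10 DnaJ genes of the ER did not share that sign: 7 were above 0 and 3 below, with a median of 0.022. None had an unadjusted p under 0.05, which 14.5% of all tested genes had. Dnajb9 (ERdj4), a target of the unfolded protein response that loads Hspa5 onto its sensor, had 56.0, 48.9 and 58.2 CPM against 50.8, 45.0 and 52.2 CPM (fold change -0.14, SE 0.088, adjusted p = 0.502). Dnajc3, an inhibitor of the kinase PERK and also a co-chaperone of Hspa5, carries the same element as Hspa5 in its promoter. Its levels were 75.8, 79.7 and 78.5 CPM against 78.4, 78.5 and 78.4 CPM, which were nearly flat (fold change 0.0084, SE 0.067, adjusted p = 0.968). Dnajb11, another luminal co-chaperone, had a fold change of 0.015 (adjusted p = 0.961), and Dnajc10, which reduces disulfides, of -0.0031 (0.990). The genotypes did not overlap for Dnajc14 (39.8 to 41.3 CPM against 43.1 to 45.8 CPM) and for Dnajc1 (31.1 to 33.8 CPM against 34.9 to 39.3 CPM), with fold changes of 0.13 (adjusted p = 0.471) and 0.17 (0.379). The remaining ER genes Dnajb12, Dnajb14, Dnajc16 and Dnajc18 had fold changes of -0.017 to 0.11, with adjusted p of 0.663 to 0.954.

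In mitochondria all 3 genes with an Hsp name had positive fold changes, and none was called. Hspa9, the Hsp70 that pulls proteins through the inner membrane, had 770, 758 and 862 CPM in resistant and 870, 859 and 939 CPM in sensitive hearts. Mouse 370 overlapped the sensitive hearts by lying just above mouse 380 (fold change 0.16, SE 0.075, adjusted p = 0.351). Hspd1 had 445, 408 and 469 CPM against 475, 465 and 496 CPM (fold change 0.12, SE 0.073, adjusted p = 0.477), and Hspe1 72.4, 75.4 and 80.2 CPM against 76.1, 81.0 and 79.8 CPM (fold change 0.055, SE 0.071, adjusted p = 0.775). Both overlapped through mouse 370. The 7 mitochondrial DnaJ genes had 3 positive and 4 negative fold changes with a median of -0.063. Of these Dnaja3 (Tid1), the main partner of Hspa9, had a fold change of 0.045 (adjusted p = 0.821), and Dnajc15 and Dnajc19, parts of the import motor, had 0.034 and -0.087 (0.879 and 0.702). Only for Dnajc4 did the genotypes not overlap, at 22.0, 23.6 and 24.2 CPM against 25.2, 25.3 and 26.3 CPM (fold change 0.14, SE 0.091, adjusted p = 0.513). Dnajc11, Dnajc28 and Dnajc30 had fold changes of -0.096 to -0.063. None of the 10 mitochondrial genes had an unadjusted p under 0.05, a level reached by 14.5% of all tested genes. The share of counts from mitochondrially encoded genes was 23.4 to 24.4% in resistant and 25.0 to 25.98% in sensitive hearts. Its part in these fold changes was not tested.

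Among the genes not placed in these compartments, Dnajc21 rose. Dnajc21 is a nuclear and cytosolic J protein that helps to mature the large ribosomal subunit. It had 47.8, 47.0 and 49.6 CPM in resistant hearts and 58.4, 61.8 and 59.6 CPM in sensitive hearts. The groups lay well apart, and the mean rose by 24.6%, from 48.1 ± 1.34 to 59.9 ± 1.73 CPM (SD, n = 3), a fold change of 0.32 (SE 0.073, adjusted p = 0.0444). The gene (ENSMUSG00000044224) is on chromosome 15 from 10446756 to 10470516 on the minus strand. Its call was close to the threshold: the adjusted p was 0.0510 with upper-quartile factors and 0.0678 to 0.164 when any of the 6 hearts was left out, with fold changes of 0.30 to 0.34. Dnajc2, a J protein of the ribosome, had a fold change of 0.18 (SE 0.090, adjusted p = 0.371), with 31.7, 32.1 and 35.6 CPM against 34.7, 40.5 and 37.8 CPM.

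Several other J proteins not placed in a compartment were lower in sensitive hearts without a call. Dnajc24, which is needed to make diphthamide, had 8.64, 8.17 and 6.68 CPM against 5.16, 5.31 and 6.48 CPM, just apart (fold change -0.47, SE 0.17, adjusted p = 0.222). The genotypes also did not overlap for Dnajc27 and Dnajc17 (fold change -0.19, adjusted p = 0.440, and -0.21, adjusted p = 0.656). Dnajc5, the vesicle protein CSP, Dnajc7, Dnajc8, a splicing protein, Dnajc9, a histone chaperone, Dnajc12, Dnajc13, an endosomal protein, and Dnajc25 had fold changes of -0.032 to 0.11, with adjusted p of 0.639 to 0.993. The name rule also took Hspbp1, a nucleotide exchange factor of Hsp70, Hspbap1, and Hspb11, a part of the intraflagellar transport machinery, with fold changes of -0.057, -0.051 and -0.054 (adjusted p of 0.861 to 0.958).

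Hearts of the same genotype differed in the order of these genes. In resistant hearts, mouse 370 had the highest and mouse 368 the lowest level of Hspa8, Hsp90ab1, Hsp90aa1, Hsph1, Dnaja1 and Dnajb1. In sensitive hearts mouse 379 had the lowest level of all of them. Dnaja2, Dnajb4, Hspa1a, Hspa1b and Hspa4l shared this order, and other cytosolic genes did not. Mouse 379 had the highest level among sensitive hearts of Dnajb2, Dnaja4, Hspb6 and Hspb2. Among resistant hearts mouse 369, not 368, had the lowest level of Hspb1 and Hspb6. As the mean of log2 CPM over a list, minus the mean of all 6 hearts, the 2 Hsp90 genes were at -0.31, -0.20 and 0.081 in resistant and 0.066, 0.22 and 0.15 in sensitive hearts. The 9 DnajA and DnajB genes were at -0.18, -0.11 and -0.057 against 0.046, 0.11 and 0.19, which did not overlap. Another list, of 10 immediate early genes (such as Fos, Egr1 and Jun, which respond within minutes to stimuli including the handling of tissue), was highest in mice 368 and 379, at 0.53 and 0.67, and lowest in mice 370 and 381, at -0.51 and -0.53, with 0.064 in mouse 369 and -0.21 in mouse 380. Within each genotype, therefore, the heart with the highest immediate early genes had the lowest Hsph1. These genes did not separate the genotypes (0 of 10 called, fold changes of -0.38 to 0.38), and their part in the chaperone values was not tested.

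**Figure D4:**
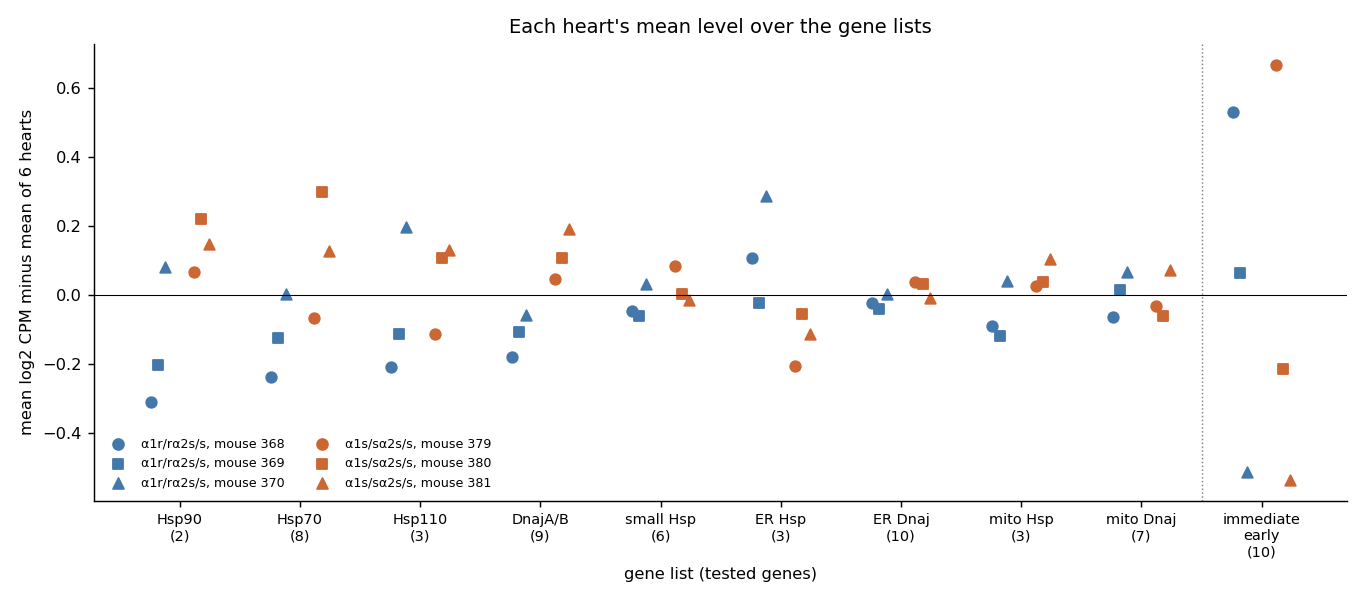
Mean log2 CPM of each heart over the tested genes of a list, minus the mean of the 6 hearts, for 9 chaperone lists and, right of the dotted line, 10 immediate early genes. Colours are genotypes and symbols are mice, and the immediate early genes run from 0.67 in mouse 379 to -0.53 in mouse 381 while the DnajA and DnajB genes run from -0.18 in mouse 368 to 0.19 in mouse 381.

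Genes that work with the chaperones but lie outside the name rule were examined as 55 partners in 5 lists with the heat shock factors, of which 54 were tested. None was called by edgeR, and 10 had an unadjusted p under 0.05 (8 higher and 2 lower), where 14.5% of all tested genes did. DESeq2 called 1, Bag1. Fold changes were positive for 44 of the 54, with a median of 0.075, and the genotypes did not overlap for 8 (14.8%), a smaller share than the 20% of all tested genes. The heat shock factors Hsf1 and Hsf2, which drive transcription of the heat-inducible genes, had fold changes of 0.043 (adjusted p = 0.881) and 0.048 (0.876). Cytosolic co-chaperones had positive fold changes in 17 of 19 tested genes. Bag1, a nucleotide exchange factor of Hsc70, had 186, 187 and 193 CPM in resistant and 209, 216 and 233 CPM in sensitive hearts, without overlap (fold change 0.22, SE 0.068, adjusted p = 0.144, and 0.0343 in DESeq2). Ptges3 (p23), which closes the Hsp90 clamp, had a fold change of 0.25 (SE 0.092, adjusted p = 0.219).

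All 8 genes of TRiC, the chamber that folds actin and tubulin, had positive fold changes with a median of 0.11, and that of Cct3 turned to -0.0032 without mouse 381. Cct5 and Cct2 led, at 0.25 and 0.21 (adjusted p of 0.133 and 0.199), and the genotypes did not overlap for these and for Cct4. Mitochondrial partners were positive in 9 of 10, and the smallest p were those of Clpx, a protease subunit (0.23, adjusted p = 0.210), and Trap1, the mitochondrial Hsp90 (0.15, adjusted p = 0.408). In the ER, 7 of 14 partners were above 0 and 7 below. Manf, an ER stress-responsive factor that binds Hspa5, had 34.5, 33.8 and 42.3 CPM in resistant and 27.1, 33.5 and 24.8 CPM in sensitive hearts, with mouse 380 close to mouse 369 (fold change -0.37, SE 0.12, adjusted p = 0.152). Pdia3, a disulfide isomerase for glycoproteins, had a fold change of -0.20 (SE 0.084, adjusted p = 0.298). The transcript of Xbp1, a transcription factor of the unfolded protein response, was level (0.024, adjusted p = 0.925), which does not measure its splicing.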

How the data were processed

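A sequencing company mapped the reads and the authors deposited raw read counts per gene. The submitters' processing notes name fastp, STAR, featureCounts and the mm10 genome. The use of strand and the treatment of reads that fit several genes are not given in the sources used here. A deposited table of the authors' own comparison (fold changes, p-values) was not used. The deposited counts were tested in R 4.3.3 with edgeR 4.0.16 (TMM factors, filterByExpr at a minimum count of 10 and total of 15), and quasi-likelihood p-values were adjusted over all 14866 tested genes by the Benjamini-Hochberg method. The SE is the fold change divided by the square root of F. For log2 CPM, 2 prior counts were added. With 3 hearts against 3, the smallest two-sided p of an exact permutation is 0.1. The alternatives were DESeq2 1.42.0, other factors and filters, a robust prior, and leaving out globin and mitochondrially encoded genes or each heart in turn. The main edgeR test and DESeq2 were tried on simulated data, with changes larger than those of the called chaperones. The other alternatives were not simulated. The members and lists, with compartments assigned from general knowledge, were chosen with earlier results of these data known. The genes named were those called, the 3 smallest p and 3 highest levels per length of each list, 14 fixed chaperones and the 2 smallest p of each partner list. Other members are given to account for all 74. Coordinates are GRCm38, and 71 of 74 genes matched GENCODE M21 exactly.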

Additional observations from a re-analysis of the deposited data

How the results depend on the processing

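No paired analysis was possible because the labels name no pairs of mice across the genotypes. Over all genes, the 214 calls became 400 with DESeq2 (of 11244), 618 with no filter (of 28183) and 231 with upper-quartile factors (of 14866). Chaperones called numbered 3, against 7 with DESeq2 (of 62), 10 with no filter (of 74) and 2 with upper-quartile factors (of 66). Leaving out 1 heart gave 0 to 7 of 66 chaperones and 80 to 158 of all genes. No chaperone was called without mouse 368, 380 or 381, where 80 of 15302, 123 of 15395 and 102 of 15354 genes were called. The fits without mouse 369 or 379 called 1 chaperone each, with 91 of 15276 and 135 of 15333 genes. Without mouse 370, 7 chaperones and 158 of 15329 genes were called. Partner genes called went from 0 to 1 with DESeq2 and with no filter (Manf, adjusted p = 0.0167). The summed Hspa1a and Hspa1b counts were called with no filter (fold change 0.73, adjusted p = 0.00283), and leaving out 1 heart gave 0.33 to 1.26 without a call. With Hsp names only, the median fold change was -0.30 in the ER and 0.12 in mitochondria, and with Dnaj names only it was -0.063 in mitochondria. The cytosolic median stayed between 0.10 and 0.23 in every alternative, whereas the ER median, close to 0, fell to -0.0044 with upper-quartile factors and ran from -0.0042 to 0.018 when 1 heart was left out. No alternative moved the median of all genes by over 0.1, the largest move being -0.013, to -0.021, with upper-quartile factors. Of 728 values of 56 named genes under alternatives, 674 kept their direction and side of the threshold, 15 lost a call, 18 gained 1 and 21 changed sign, none of them called. With upper-quartile factors Dnajc3 was at -0.0044. When 1 heart was left out, fold changes ran from -0.061 to 0.099 for Dnajb11, -0.0090 to 0.028 for Dnajc3, -0.012 to 0.053 for Dnajc5, -0.12 to 0.050 for Dnajc7, -0.0039 to 0.097 for Hsf2, -0.036 to 0.079 for Hspa12b, -0.052 to 0.060 for Hspa4l, -0.34 to 0.12 for Hspb11, -0.071 to 0.017 for Hspb8, -0.28 to 0.22 for Hspbap1 and -0.096 to 0.015 for Hspbp1. Among members outside the named genes, Dnajb13 ran from -0.24 to 0.42, and Dnajc9, Dnajc10, Dnajc12, Dnajc13, Dnajc15, Dnajc16, Dnajb14 and Hspa2, all close to 0, also changed sign in at least 1 alternative. The cause of these moves was not tested. Hspa1a and Hspa1b share sequence with each other at like counts. Dnaja1 shared 22.6% of its sequence, in part with Smu1 (755 to 854 counts per heart). Dnaja4 shared 41.5%, with Wdr61 (308 to 417 counts per heart). No stretch of 100 bases was shared by 43 of the 74 genes.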
